A study of Sus scrofa domesticus with 11 samples.

Results

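The livers of preterm Yorkshire piglets on parenteral nutrition were examined for 9 genes of the urea cycle and of ammonia handling: NAGS, CPS1, OTC, SLC25A15, ASS1, ASL, ARG1, GLUD1 and GLS2. They were matched by gene name, and the list was drawn up with earlier results of these data known. Of the 22029 genes in the deposited table, 7 carry one of these names. ASL and GLS2 have rows without a name, which were found by gene identifier, and the descriptions in those rows read argininosuccinate lyase and glutaminase 2. All 9 genes passed the filter on low counts. Liver was taken on day of life 15 from 5 piglets given 48 mg/kg of SEFA-6179, a compound named in the labels by this code, and from 6 piglets given MCT, labelled as the vehicle control in matched volume at 3 ml/kg. Both groups were born preterm and fed by vein, and no group fed otherwise was analysed here. The sources used here state neither sex, litter nor batch. The p-values measure the spread between libraries, each taken as 1 animal.

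The urea cycle turns ammonia, which is toxic, into urea, and the liver is the main organ that runs it in full. Its first steps take place in the mitochondria of periportal hepatocytes and the later ones in their cytosol. The amino acids of intravenous feeding reach the liver as nitrogen that must be kept as protein or passed to this cycle, and the enzymes are known to respond to protein intake, glucagon and glucocorticoids.

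In the order of the pathway, GLS2 (ENSSSCG00000000401, liver-type glutaminase) frees ammonia from glutamine and GLUD1 (ENSSSCG00000010368) frees it from glutamate. NAGS (ENSSSCG00000024179) makes N-acetylglutamate, without which CPS1 is inactive. CPS1 (ENSSSCG00000016159) joins ammonia and bicarbonate into carbamoyl phosphate, and OTC (ENSSSCG00000012236) passes that group to ornithine, giving citrulline. SLC25A15 (ENSSSCG00000009373) carries ornithine into the mitochondrion in exchange for citrulline. In the cytosol ASS1 (ENSSSCG00000005701) couples citrulline with aspartate, ASL (ENSSSCG00000007738) splits the product into arginine and fumarate, and ARG1 (ENSSSCG00000004195) cleaves arginine into urea and ornithine.

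The genes are spread over 8 chromosomes, with coordinates as deposited, whose genome build the sources used here do not name. CPS1 spans 113209999 to 113339078 on chromosome 15, OTC 34322298 to 34391837 on chromosome X and NAGS 19169961 to 19174747 on chromosome 12. ASS1 lies at 270531589 to 270586361 and ARG1 at 32006038 to 32028986, both on chromosome 1, and ASL at 16637481 to 16646869 on chromosome 3. SLC25A15 occupies 15494385 to 15559312 on chromosome 11, GLUD1 87968850 to 88005550 on chromosome 14 and GLS2 21806406 to 21820001 on chromosome 5. GLS2, with a mean count of 2464, overlaps RBMS2 and SPRYD4 on the opposite strand, which had mean counts of 575 and 488. SLC25A15 (mean count 2395) overlaps an unnamed gene with a mean count of 153 and CPS1 (mean count 22156) an unnamed pseudogene with one of 12.9, each on the opposite strand. Whether the counting used strand is not stated in these sources, so reads of such pairs cannot be told apart.

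Depth, as the total count of a library, was 16821201 to 19215097 in SEFA-6179 livers and 15974977 to 23416071 in MCT livers. ALB, which encodes albumin, was at 42121 to 126439 CPM in SEFA-6179 livers, against 33175 to 120964 CPM in MCT livers, where CPM are counts per 1e+06 reads after TMM scaling, a correction for library composition. All 10 hepatocyte markers looked up were in the table. Of 9 tested cholangiocyte markers, 0 had a log2 fold change above 0 and 0 passed by edgeR, with 5 at an unadjusted p below 0.05 and 4 called by DESeq2. Over all tested genes 10.8% had an unadjusted p below 0.05 and DESeq2 called 2.02%. The summed cholangiocyte markers were at 181 to 261 CPM in SEFA-6179 livers, against 197 to 502 CPM in MCT livers. Of 8 tested endothelial markers 8 had a log2 fold change above 0, with 3 at an unadjusted p below 0.05 by edgeR. Of 9 tested stellate markers 7 were below 0, with 4 lower and 1 higher at an unadjusted p below 0.05. In both lists 0 passed by edgeR and DESeq2 called 0. The part of bile duct, endothelial and stellate cells in the results was not tested. The first principal component, with 19.6% of the variance, set MCT replicate 5 apart at 83.1, while SEFA-6179 libraries had -30.8 to 14.7 and the remaining MCT libraries -15.1 to -3.03. Results that rest on this library are given with and without it. In pieces of liver, fewer cells of a type and less RNA per cell cannot be told apart.

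Per gene length, by the deposited FPKM (fragments scaled to gene length and depth), the cytosolic enzyme ASS1 had the highest level of the 9, at 311 ± 63.6 FPKM (SD, n = 11), and the ornithine carrier SLC25A15 the lowest, at 19.9 ± 7.06 FPKM. ASS1 ranked 150 and SLC25A15 1701 among all genes of the table. Between them stood GLUD1 at 195 ± 43.8, CPS1 at 190 ± 91.7, ASL at 121 ± 32.8, OTC at 120 ± 37.3 and ARG1 at 105 ± 49.9 FPKM. NAGS, the maker of the CPS1 activator, and GLS2 were at 45.8 ± 14.8 and 45.0 ± 14.2 FPKM. Some neighbours in this order did not differ beyond their spread. ASL was above OTC in 5 of 11 libraries, NAGS above GLS2 in 5 of 11 and GLUD1 above CPS1 in 8 of 11. Steps that most libraries shared were ASS1 over GLUD1 (10 of 11), CPS1 over ASL (9 of 11), ARG1 over NAGS (10 of 11) and GLS2 over SLC25A15 (11 of 11), and OTC was above ARG1 in 8 of 11. The order depends on the gene lengths used, which run from 1609 bases for ASL to 6363 bases for SLC25A15. By mean count, without length, ASS1 was again the highest (32856), but NAGS (1483) was the lowest, below SLC25A15 (2395). ARG1 (12086) then stood above OTC (5061) and ASL (3633).

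**Figure D1:**
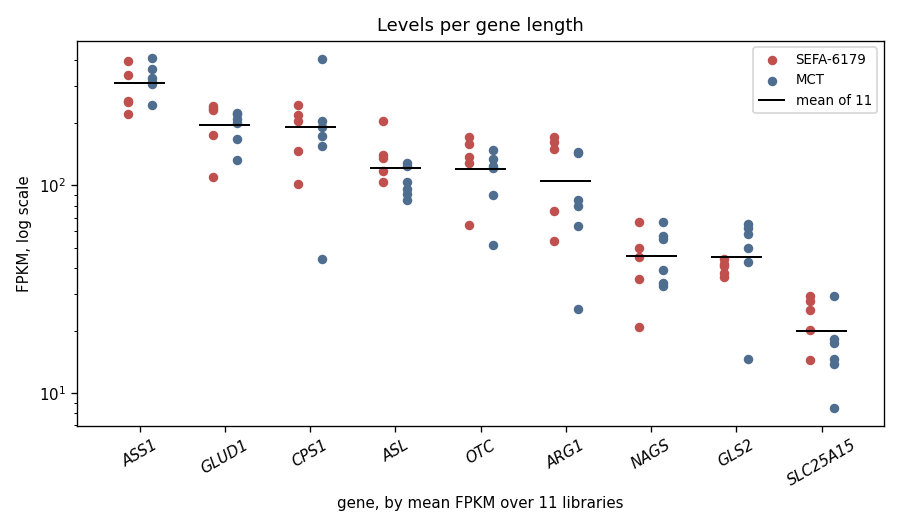
Deposited FPKM, on a log axis, of each gene in each library, SEFA-6179 (red, n = 5) left of MCT (blue, n = 6), with the mean of all 11 libraries as a bar. ASS1 has the highest mean and SLC25A15 the lowest, and the SEFA-6179 and MCT points of each gene overlap.

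The comparison of SEFA-6179 with MCT asks whether the compound went with other levels of these mRNAs. With edgeR (quasi-likelihood, p-values adjusted by Benjamini-Hochberg over 13671 genes), 0 of the 7 genes matched by name and 0 of all 9 passed the threshold of 0.05, where 0.219% of all tested genes did. DESeq2 also called 0 of the 9, against 2.02% of all tested genes. At an unadjusted p below 0.05 stood 1 of the 9, ASL, which was higher with SEFA-6179, against 10.8% of all tested genes in either direction and 5.24% in that one. Of the 9, 5 had a log2 fold change above 0 and 4 below, with a median of 0.055, and the median over all tested genes was -0.0015. In 0 of the 9 did the groups lie apart without overlap, as they did in 1.49% of tested genes. Below, ± gives the SE after a log2 fold change and the SD over 5 SEFA-6179 or 6 MCT libraries after a mean. A p above the threshold does not show equal levels, and the 95% intervals below give the differences these libraries leave possible.

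**Figure D2:**
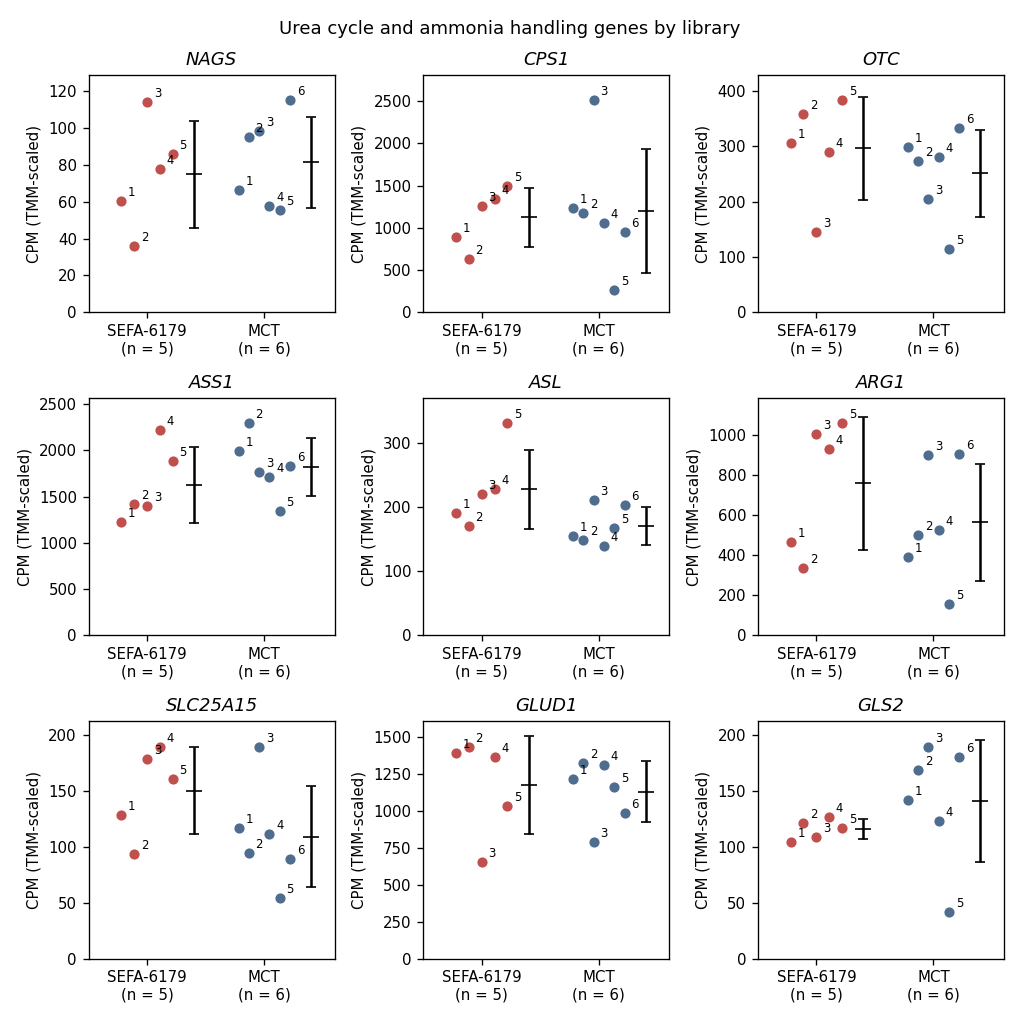
TMM-scaled CPM of the 9 genes in each library, marked with the replicate number, SEFA-6179 (n = 5) left of MCT (n = 6), with mean and SD as bars. The groups overlap for every gene shown, MCT replicate 5 is the lowest library for CPS1, OTC, ARG1, SLC25A15 and GLS2, and the SEFA-6179 values of GLS2 lie between 104 and 127 CPM.

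Of the mitochondrial enzymes, CPS1, which commits ammonia to the cycle, was at 890, 628, 1256, 1338 and 1498 CPM in SEFA-6179 replicates 1 to 5, against 1232, 1175, 2512, 1061, 268 and 946 CPM in MCT replicates 1 to 6. MCT held both the highest and the lowest library, and all SEFA-6179 values lay between them. The log2 fold change was -0.096 ± 0.41 (SE; 95% interval -0.99 to 0.80, edgeR adjusted p = 0.959). It was -0.30 without MCT replicate 5 and 0.26 without MCT replicate 3, so its sign was set by single libraries. NAGS was at 60.7, 36.0, 114, 77.8 and 85.9 CPM in SEFA-6179 livers, against 66.6, 95.0, 98.7, 58.0, 55.7 and 115 CPM in MCT livers. SEFA-6179 replicate 2 had the lowest NAGS of all, and the other libraries overlapped (log2 fold change -0.12 ± 0.27, 95% interval -0.71 to 0.46, edgeR adjusted p = 0.906). OTC averaged 297 ± 92.9 CPM in SEFA-6179 livers, against 251 ± 79.0 CPM in MCT livers (log2 fold change 0.24 ± 0.28, 95% interval -0.35 to 0.83). The difference shrank to 0.09 on the log2 scale without MCT replicate 5.

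SLC25A15, the ornithine and citrulline exchanger, had the largest log2 fold change of the 9 with all libraries, though not without MCT replicate 5, where ASL (0.41) and GLS2 (-0.47) were further from 0. It was at 129, 93.9, 178, 190 and 161 CPM in SEFA-6179 livers, against 117, 94.7, 189, 112, 53.8 and 89.2 CPM in MCT livers. MCT replicate 3 was as high as the highest SEFA-6179 library, while 4 of 5 SEFA-6179 libraries lay above the MCT median. The log2 fold change was 0.46 ± 0.27 (SE; 95% interval -0.12 to 1.04, edgeR adjusted p = 0.570), and 0.32 without MCT replicate 5.

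Of the cytosolic enzymes, ASL, which releases arginine, came nearest to the threshold. It was at 190, 170, 220, 228 and 330 CPM in SEFA-6179 replicates 1 to 5, against 154, 149, 211, 139, 168 and 203 CPM in MCT replicates 1 to 6. All 5 SEFA-6179 libraries lay above the MCT median and 3 of them above every MCT library. The log2 fold change was 0.42 ± 0.19 (SE; 95% interval 0.02 to 0.82), with an unadjusted p of 0.0421 and an adjusted p of 0.434 by edgeR, so ASL did not pass. In the authors' deposited table its adjusted p was 0.367. SEFA-6179 replicate 5 carried much of it, as the log2 fold change was 0.24 without that library.

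ASS1, the step before ASL, was at 1220, 1425, 1401, 2219 and 1886 CPM in SEFA-6179 livers, against 1996, 2291, 1763, 1717, 1343 and 1833 CPM in MCT livers. SEFA-6179 replicate 1 was the lowest library and MCT replicate 2 the highest, with overlap between (log2 fold change -0.16 ± 0.20, 95% interval -0.60 to 0.27, edgeR adjusted p = 0.825). ARG1, which yields urea, was at 465, 336, 1001, 927 and 1055 CPM in SEFA-6179 livers, against 391, 498, 897, 527, 157 and 903 CPM in MCT livers. Both groups were split, with 3 SEFA-6179 and 2 MCT libraries at 897 CPM or more and the rest at most 527 CPM. Its log2 fold change of 0.43 ± 0.42 thus came with a wide 95% interval, -0.47 to 1.33, and it was 0.24 without MCT replicate 5.

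Since ASS1 and ASL act one after the other, their FPKM ratio was taken within each library, where library scaling drops out. It was 1.87, 2.44, 1.85, 2.84 and 1.67 in SEFA-6179 livers, against 3.77, 4.49, 2.44, 3.60, 2.33 and 2.63 in MCT livers. The 3 lowest ratios were all SEFA-6179 and the 3 highest all MCT, with overlap between. On the log2 scale the mean was 1.06 ± 0.32 with SEFA-6179 (SD, n = 5) and 1.64 ± 0.39 with MCT (SD, n = 6), a difference of -0.57 (exact permutation p = 0.0390, two-sided). Over the 6 ratios between members tested in this way, chosen with the gene values known, its Benjamini-Hochberg adjusted permutation p was 0.234 and did not pass. The other 5 ratios, of GLUD1, OTC, ARG1, NAGS and SLC25A15 to CPS1, had unadjusted exact permutation p between 0.108 and 0.905.

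The ammonia-releasing enzymes differed from each other in their spread. GLUD1 was at 1386, 1432, 651, 1363 and 1029 CPM in SEFA-6179 livers, against 1216, 1324, 785, 1305, 1157 and 985 CPM in MCT livers. Replicate 3 of each group was its lowest library, and the sources used here do not say whether equal numbers link libraries. The log2 fold change of GLUD1 was 0.055 ± 0.22 (95% interval -0.43 to 0.53). GLS2 was at 104, 121, 109, 127 and 117 CPM in SEFA-6179 livers, against 142, 169, 190, 123, 41.4 and 180 CPM in MCT livers. The SEFA-6179 libraries lay close together, with an SD of 0.11 on the log2 CPM scale, against 0.82 in MCT livers, or 0.26 in MCT livers without replicate 5, which was far below the rest. All 5 SEFA-6179 libraries were below the MCT median. With all libraries the log2 fold change was -0.28 ± 0.29 (SE; 95% interval -0.90 to 0.33, edgeR adjusted p = 0.773). Without MCT replicate 5 it was -0.47 ± 0.15, with an unadjusted p of 0.00628 and an adjusted p of 0.220 by edgeR, which did not pass; without that library 0.221% of all tested genes passed.

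The livers differed more in CPS1 and ARG1 than in ASS1 and ASL, with or without MCT replicate 5. From the lowest to the highest library CPS1 spanned 9.38-fold, ARG1 6.73-fold and GLS2 4.58-fold, while SLC25A15, OTC and NAGS spanned 3.53-fold, 3.34-fold and 3.20-fold. ASL spanned 2.38-fold, GLUD1 2.20-fold and ASS1, the most abundant per length, 1.88-fold. The SD between libraries of a group, pooled over both groups on the log2 CPM scale, was 0.86 for CPS1 and 0.86 for ARG1, larger than in 96.1% and 96.2% of the 2299 genes with a mean count of at least 1000. It was 0.62 for GLS2, 0.56 for OTC, 0.53 for NAGS, 0.52 for SLC25A15 and 0.39 for GLUD1. ASS1 and ASL, at 0.30 each, were close to the median of those genes, 0.30. Without MCT replicate 5, an alternative chosen after seeing the data, CPS1 spanned 4.00-fold, ARG1 3.14-fold, SLC25A15 2.13-fold, OTC 2.64-fold and GLS2 1.82-fold, and the other 4 spans did not involve that library. GLS2 then had the smallest span of the 9, so its wide range rested on that library. The pooled SD was then 0.53 for CPS1, 0.65 for ARG1 and 0.20 for GLS2, larger than in 88.6%, 93.6% and 24.9% of the same 2299 genes.

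**Figure D3:**
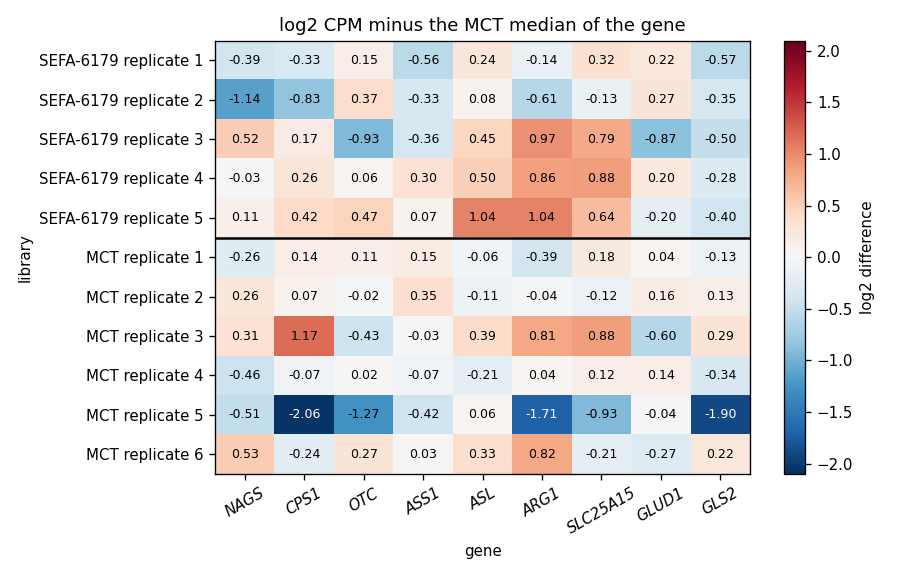
Difference of log2 CPM from the MCT median of the gene, for 9 genes (columns) in 5 SEFA-6179 libraries (upper rows) and 6 MCT libraries (lower rows), red above and blue below. MCT replicate 5 is the lowest in CPS1 (-2.06), GLS2 (-1.90), ARG1 (-1.71), OTC (-1.27) and SLC25A15 (-0.93), while its ASL (0.06) and GLUD1 (-0.04) are near the MCT median.

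MCT replicate 5 was the lowest of the 11 libraries in 5 of the 9 genes, and its summed level of the 9 was 3358 CPM, against 4602 to 6760 CPM with SEFA-6179 and 5321 to 6851 CPM in the other MCT libraries. Its hepatocyte markers went both ways. Their sum, 178247 CPM, was the highest of the MCT livers, and most of it was ALB, at 120964 CPM. Of the 10 markers, 2 were lower in it than in any other library, CPS1 itself and TAT, tyrosine aminotransferase, at 126 CPM against at least 330 CPM in the other 10 libraries. Its summed periportal markers, at 2183 CPM against at least 2938 CPM, and pericentral markers, at 1316 CPM against at least 1441 CPM, were the lowest of all. Of 8 periportal markers 4 were lowest in it, among them GLS2 and HAL, histidine ammonia-lyase, at 25.6 CPM against at least 62.7 CPM. Of 10 pericentral markers 3 were lowest in it, and CYP2E1, at 838 CPM, made up most of the pericentral sum. Among the others RHBG, at 98.6 CPM, was the highest of the MCT livers, and GLUL, at 283 CPM, was above the MCT median of 274 CPM. The summed cholangiocyte markers of MCT replicate 5 were the highest, at 502 CPM against at most 324 CPM. CLDN4 was at 328 CPM and EPCAM at 44.6 CPM, and 5 of 10 cholangiocyte markers were highest in it. The part of these cell types and zones in its low members was not tested. The share of all tested genes that were lowest in MCT replicate 5 is not given here. Its 5 of 9 genes thus have no background to be set against.

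SEFA-6179 replicate 3 and MCT replicate 3 had the lowest GLUD1 in their groups. Of the MCT livers replicate 3 had the highest CPS1, and among SEFA-6179 livers replicate 3 had the lowest OTC, at 145 CPM against 289 to 384 CPM in the rest of its group. The GLUD1 to CPS1 FPKM ratio was 0.538 to 2.37 with SEFA-6179 (median 1.06) and 0.324 to 4.49 with MCT (median 1.13), lowest in these 2 libraries and highest in MCT replicate 5. SEFA-6179 replicate 3, with 103634 CPM, and MCT replicate 3, with 73100 CPM, also had the lowest sums of hepatocyte markers in their groups, to which ALB contributed most. In each of them 4 of the 10 markers were the lowest of the group, while CPS1, on the same list, was the highest of all 11 libraries in MCT replicate 3. The part of these markers in the result was not tested.

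Over the 11 libraries 36 pairs of the 9 genes were compared on the log2 CPM scale, by permutation tests with 100000 permutations. Pearson's r was above 0 in 29 pairs and below 0 in 7, 6 of which involved GLUD1. It was highest for CPS1 and SLC25A15 (r = 0.86, permutation p = 0.0169 after Benjamini-Hochberg adjustment over the 36 pairs). Spearman's rho of that pair was 0.84, with an adjusted permutation p of 0.0828, which did not pass. CPS1 and ARG1 had r = 0.83 (adjusted permutation p = 0.0272) and rho = 0.75 (0.137), and ARG1 and SLC25A15 r = 0.82 (0.0272) and rho = 0.64 (0.197). Without MCT replicate 5 the r of these pairs was 0.72, 0.62 and 0.65. These 3 pairs passed by r and 0 pairs passed by both measures. Without the 2 libraries farthest from the median of the first gene of the pair, r was 0.65 for CPS1 and SLC25A15, 0.64 for CPS1 and ARG1, and 0.62 for ARG1 and SLC25A15. For CPS1 and GLS2, r was 0.81 with all libraries and 0.015 without those 2, MCT replicates 3 and 5, so that relation rests on them. The lowest r was that of NAGS and GLUD1, at -0.70, with an adjusted permutation p of 0.0972, which did not pass, and -0.71 without its 2 extreme libraries.

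Among all tested genes with a symbol, the profile most like that of each member was sought by the mean absolute difference of log2 CPM, each gene centred on its mean over the 11 libraries. For CPS1, which itself deviated by 0.54 on average, the nearest were C11orf42 (0.29, mean count 14.3), PPARGC1A (0.30) and GCH1 (0.32). For ARG1, with 0.68, they were SPEF2 (0.24), TSKS (0.27) and TAT (0.31), the first 2 with mean counts of 26.3 and 19.9. For NAGS, with 0.41, the nearest was SLC7A2, a carrier of cationic amino acids such as arginine (0.17), followed by UBA6 and TRIM45 (0.21 each). OTC had PDE3B, GAS2 and ALAD (0.16 to 0.17, against 0.42 for OTC itself), and SLC25A15 had ISOC1, UGP2 and HDAC4 (0.21 each, against 0.44). The nearest to ASS1 were COX18, VEZT and TPP2, to ASL CAMLG, PLEKHG5 and RAD17, to GLUD1 USP46, ELMOD3 and SCARB1, and to GLS2 GAS2L3, ARSG and ST6GAL2, at 0.10 to 0.20. In no case was another of the 9 genes among the nearest 3.

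Of 43 other genes of glutamine, aspartate, ornithine and ammonia handling listed from textbook knowledge, 40 were in the table and 38 were tested. By edgeR 0 of the 38 passed over all genes, 4 had an unadjusted p below 0.05 (against the 10.8% of all tested genes), and 17 had a log2 fold change above 0 and 21 below, with a median of -0.022. DESeq2 called 1 of the 38, against 2.02% of all tested genes. It was GOT1, the cytosolic aspartate aminotransferase, which can supply the aspartate that ASS1 uses. GOT1 was at 96.4, 77.1, 86.6, 163 and 165 CPM in SEFA-6179 livers, against 47.9, 64.6, 63.9, 56.8, 50.2 and 90.4 CPM in MCT livers. MCT replicate 6 overlapped the lower SEFA-6179 libraries, and the other MCT libraries lay below all of them. The log2 fold change was 0.92 ± 0.23 (SE; 95% interval 0.42 to 1.41), with an adjusted p of 0.139 by edgeR, 0.0169 by DESeq2 and 0.0177 in the authors' deposited table. GOT2, the mitochondrial form, was at 142 ± 25.8 CPM in SEFA-6179 livers, against 149 ± 43.7 CPM in MCT livers.

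Further genes of this list with an unadjusted p below 0.05 were SLC38A4, a carrier of neutral amino acids, at 462 ± 97.5 CPM in SEFA-6179 livers, against 340 ± 53.0 CPM in MCT livers (edgeR adjusted p = 0.365), RHCG, an ammonia channel, and CAD, which starts pyrimidine synthesis. RHCG was at 0.531 ± 0.655 CPM in SEFA-6179 livers, against 3.27 ± 4.38 CPM in MCT livers, where replicate 5 alone had 12.0 CPM (edgeR adjusted p = 0.387). Its log2 fold change was -2.63 with all libraries and -1.53 without MCT replicate 5. CAD was at 5.83 ± 2.07 against 8.79 ± 2.46 CPM (edgeR adjusted p = 0.454). SLC38A3, which carries glutamine into hepatocytes and was chosen after its values were seen, was at 202, 247, 212, 226 and 220 CPM in SEFA-6179 livers, against 333, 421, 271, 302, 137 and 322 CPM in MCT livers. Like GLS2, it was tightly grouped with SEFA-6179. Every MCT library was above these SLC38A3 values except replicate 5, which lay below them. For GLS2, MCT replicate 4 (123 CPM) was also below SEFA-6179 replicate 4 (127 CPM). The log2 fold change of SLC38A3 was -0.43 ± 0.22 (SE, edgeR adjusted p = 0.514) with all libraries. It was -0.58 without MCT replicate 5 (edgeR adjusted p = 0.168), and SLC38A3 did not pass in either.

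**Figure D4:**
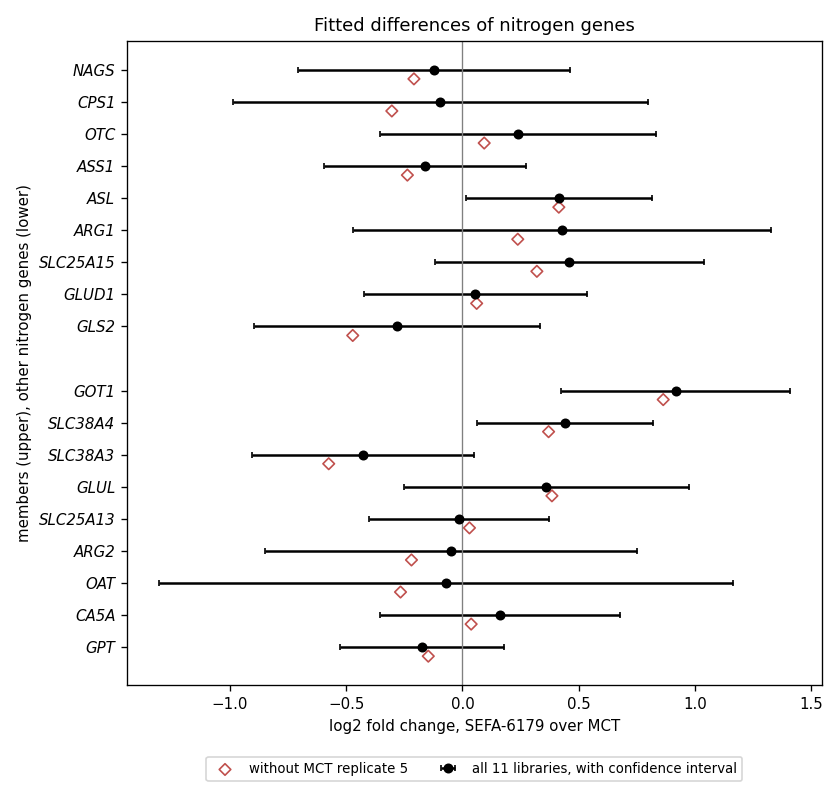
Log2 fold change of SEFA-6179 over MCT by edgeR with its 95% interval (black, all 11 libraries) and the value without MCT replicate 5 (red diamonds), for the 9 genes (upper) and 9 other nitrogen genes (lower). GOT1 at 0.92 is the highest and SLC38A3 at -0.43 the lowest of those drawn, and the intervals of ASL, GOT1 and SLC38A4 lie above 0. RHCG and CAD, which were lower with SEFA-6179 at an unadjusted p below 0.05 by edgeR, are not drawn.

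GLUL, the glutamine synthetase that pericentral hepatocytes use to catch ammonia missed by the urea cycle, was at 331 ± 108 CPM in SEFA-6179 livers (n = 5), against 258 ± 88.8 CPM in MCT livers (n = 6), a log2 fold change of 0.36 ± 0.29 (SE). SLC25A13, the carrier that brings aspartate out of the mitochondrion, was at 111 ± 26.6 against 112 ± 18.3 CPM. ARG2, the mitochondrial arginase, was at 13.7 ± 6.06 against 14.2 ± 6.72 CPM. OAT, ornithine aminotransferase, was at 28.5 ± 15.3 against 29.9 ± 28.4 CPM. CA5A, which supplies bicarbonate to CPS1, was at 73.1 ± 19.4 against 65.3 ± 21.7 CPM, and GPT, alanine aminotransferase, at 40.5 ± 8.63 against 45.7 ± 7.33 CPM. None of these 6 passed, with edgeR adjusted p between 0.697 and 0.989 and 95% intervals that included 0.

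Because the urea cycle is periportal and glutamine synthesis pericentral, markers of both zones were set beside the members. The periportal list held GLS2 itself, and the pericentral one GLUL and OAT. Of 8 tested periportal markers 4 had a log2 fold change above 0, and 1 passed by edgeR, CDH1, an adhesion protein also found in bile duct cells, which was lower with SEFA-6179, at 318 to 523 CPM against 651 to 917 CPM (edgeR adjusted p = 0.0478). This call held in 2 of 11 fits with 1 library left out, at adjusted p of 0.0444 to 0.158, and was lost without MCT replicate 5 (0.0670). Of the 8, 3 had an unadjusted p below 0.05, 2 had groups without overlap and DESeq2 called 2, CDH1 and PCK1. Over all tested genes 0.219% passed by edgeR, 10.8% had an unadjusted p below 0.05, 1.49% had groups without overlap and DESeq2 called 2.02%. PCK1, which starts glucose synthesis and made up most of the periportal sum, was at 2601 to 3397 CPM in SEFA-6179 livers, against 1196 to 2340 CPM in MCT livers, a log2 fold change of 0.69 (adjusted p = 0.188 by edgeR and 0.00868 by DESeq2). Of 10 tested pericentral markers 7 were above 0 and 0 passed by edgeR or DESeq2, with 0 at an unadjusted p below 0.05. The summed periportal markers were at 3527 to 4531 CPM in SEFA-6179 livers, against 2183 to 3867 CPM in MCT livers. The summed pericentral markers were at 1467 to 2813 CPM in SEFA-6179 livers, against 1316 to 2000 CPM in MCT livers. Both sums overlapped between the groups.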

How the data were processed

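Liver RNA of 11 piglets was sequenced. The authors deposited 1 table with, per the file headers, a raw read count and an FPKM value per gene and library. The authors also deposited size-factor normalized signal values. The deposited log2 fold change and p-values of the authors' own comparison were only quoted. Tools named in the submitters' processing notes, without their steps, are DESeq2 1.20.0, featureCounts 1.5.0-p3, StringTie 1.3.3b and HISAT2 2.0.5. Names came from the table for 14022 genes and from a reference list, by identifier, for 779 more.

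Counts were tested with edgeR 4.0.16 (R 4.3.3): filterByExpr at a minimum count of 10, TMM scaling, quasi-likelihood test with robust estimation over all 11 libraries, two-sided, Benjamini-Hochberg adjustment over all 13671 tested genes, threshold 0.05. Standard errors came from the fold change and F, and 95% intervals from the total degrees of freedom of the quasi-likelihood fit, residual plus prior. Log2 CPM used a prior count of 2. Each library was taken as 1 animal, and no 2 libraries agreed within sampling noise (lowest chi-square per degree of freedom 45.7). That cannot show separate animals, as 2 pieces of liver from 1 animal could also differ by more than sampling noise. Alternatives used DESeq2 1.42.0 and limma 3.58.1, and permutation tests Python 3.11.15 with scipy 1.17.1. The fits were tested on simulated data. Members and lists were chosen with earlier results of these data known. The text names all members, other nitrogen genes with an unadjusted p below 0.05, and GLUL, SLC25A13, ARG2, OAT, CA5A, GOT1 and GPT, set by name; 1 further gene set by name is not reported here. Others are marked where named or were chosen after their values were seen (GOT2, TAT, HAL, CDH1, PCK1, CLDN4, EPCAM, CYP2E1, RHBG, GPT2).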

Additional observations from a re-analysis of the deposited data

Results flagged for a closer look

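Of the 94 groups of libraries examined, each 1 gene in SEFA-6179 or MCT, 5 had a single library at a wide gap from all others, where about 4.7 would be flagged by chance. None of the 5 was a group of the 9 urea cycle and ammonia genes. The check was made on CPM, where a low library stands out less than on the log2 scale, and all flagged values were high. GLS2 in MCT replicate 5 was at 5.38 log2 CPM, against 6.94 to 7.57 in the other MCT libraries, and was not tested on that scale. OAT, ornithine aminotransferase, reached 86.6 CPM in MCT replicate 3, while its fellow MCT libraries had 8.48 to 25.9 CPM. SLC3A2, the heavy chain of amino acid exchangers, was at 68.1 CPM in MCT replicate 5, against 33.4 to 41.4 CPM. RHCG, an ammonia channel, was at 12.0 CPM in MCT replicate 5 too, against 0.297 to 3.37 CPM. RHBG, another ammonia channel, was at 111 CPM in SEFA-6179 replicate 5, against 46.3 to 62.5 CPM in the rest of that group. AQP3, a water and glycerol channel, was at 21.6 CPM in MCT replicate 2, against 2.33 to 8.53 CPM.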

How the results depend on the processing

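Of the 24 alternatives, each called 0 of the 9 genes, with a lowest adjusted p of 0.220 (GLS2 by edgeR without MCT replicate 5). The sign of OTC, ASS1, ASL, ARG1, SLC25A15 and GLS2 was kept in all 24. With 1 library left out, the log2 fold change ran from -0.30 to 0.26 for CPS1, -0.32 to 0.057 for NAGS, -0.033 to 0.21 for GLUD1, -0.27 to 0.19 for ARG2, -0.41 to 0.61 for OAT and -0.12 to 0.11 for SLC25A13, and the median of the 9 from -0.02 to 0.21. By limma on log2 FPKM, CPS1 was at 0.10 with every pseudocount and filter, and OAT at 0.12 with a pseudocount of 1 and 0.14 with 0.1. The sources used here do not say whether the replicate numbers pair the libraries. Deviations of same-numbered libraries correlated at -0.15 to 0.20, which cannot settle whether such libraries shared a litter or batch. With the replicate block over replicates 1 to 5, 8 genes of the table passed, with CPS1 at 0.0094, GLUD1 at -0.015, ARG2 at 0.025 and OAT at 0.22. With these libraries and no replicate block, chosen after seeing the data, 40 passed and NAGS was at 0.0019. The cause of these turns was not tested.

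Over all genes edgeR called 30, DESeq2 276, limma with library weights 62, limma on log2 FPKM with no filter 4, and edgeR with SEFA-6179 replicate 4 and MCT replicate 5 left out called 1. With 1 library left out edgeR called 0 to 53: 9, 53 and 0 without SEFA-6179 replicates 1, 3 and 5, and 1, 9, 16 and 0 without MCT replicates 1 to 4. At an unadjusted p below 0.05 the counts of 0 stood beside 1184 and 1258 genes. Of the other nitrogen genes DESeq2 called 1 and every other alternative 0. TPM in place of FPKM exchanged GLUD1 and CPS1, as neighbours in the order of levels. TPM is also scaled to gene length, so it cannot show how the order depends on the lengths. Counting intervals cover reads only, and 5 and 6 libraries limit what could be told apart.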

Other observations

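GPT2, the mitochondrial alanine aminotransferase, varied more between livers than any of the 9 genes. It was at 42.0, 32.3, 89.0, 103 and 167 CPM in SEFA-6179 replicates 1 to 5, against 27.7, 49.0, 189, 31.8, 5.45 and 106 CPM in MCT replicates 1 to 6. As for ARG1, MCT replicate 5 was the lowest library, and the groups overlapped (log2 fold change 0.34 ± 0.75 SE, edgeR adjusted p = 0.905). Without MCT replicate 5 the log2 fold change was 0.10, and with 1 library left out it ran from -0.041 to 0.97.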
